A study of Mus musculus with 15 samples.

Results

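The genes described here encode electron transfer flavoprotein (ETF), its membrane acceptor and the methyltransferase that modifies it, measured in brown adipose tissue of mice given bisphenol S (BPS) or vehicle. They were the 4 rows of the deposited FPKM table, out of 16774 genes, whose symbol was Etfbkmt, Etfa, Etfb or Etfdh. Etfbkmt was selected on its FPKM values in these same libraries, which differed between BPS and vehicle, so that difference is given as a description, with no test. Etfa, Etfb and Etfdh were added for what their proteins do. FPKM is a level scaled to the length of the transcript and to the number of fragments in the library, so levels of different genes can be set side by side.

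ETF is a flavin-carrying heterodimer of the mitochondrial matrix, made of an alpha subunit (Etfa) and a beta subunit (Etfb). It takes electrons from the acyl-CoA dehydrogenases of fatty acid oxidation and from several dehydrogenases of amino acid breakdown, and hands them to ETF-ubiquinone oxidoreductase (Etfdh) in the inner membrane, which reduces ubiquinone of the respiratory chain. Brown fat, which burns fatty acids to make heat, depends on this route. Etfbkmt, also called Mettl20, encodes a mitochondrial lysine methyltransferase whose known substrate is the ETF beta subunit. In work on the human enzyme, methylation of that subunit lowered its ability to take electrons from acyl-CoA dehydrogenases in the test tube.

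Bulk RNA sequencing covered 7 BPS and 8 vehicle libraries, each of brown adipose tissue and with an identifier of its own in the labels. BPS is an industrial replacement for bisphenol A, and the title of the series describes its dose as environmental and its question as one of aging. Strain, sex, age, dose and duration are not given in the sources used here. Replicate numbers are those of the sample titles, which for BPS were 1 to 6 and 8. FPKM summed to between 756556 and 920855 per library, and 11527 to 12306 genes reached 1 FPKM in each. Absolute depth is unknown, since the table holds no counts.

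The beta subunit gene carries the sites that Etfbkmt's product modifies, so that stretch is shown. Etfb lies on the plus strand of chromosome 7, from 43444072 to 43457800 (GRCm38.p6). In the human protein the methylated residues are lysines 200 and 203, and in mouse Etfb codons 200 and 203 are both lysine codons. The GENCODE transcript has 6 exons and 255 codons, and codon 200 opens exon 6. The 30 coding bases printed here lie at chr7:43457570-43457599. Capitals mark codons 200 and 203.
Etfb exon 6: AAAgccaagAAGaagaagattgaagtggtc

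Etfbkmt lies on the plus strand of chromosome 6, from 149141476 to 149151171, and overlaps no other gene of the RefSeq table. Etfa lies on the minus strand of chromosome 9 (55454436 to 55512243) and Etfdh on the minus strand of chromosome 3 (79603788 to 79628767). The first 250 bases of each RefSeq promoter window (GRCm38.p6) were read, and 5 short motifs were searched on both strands. These were the CCAAT box, spelled as named, and the GC box, which reads GGGCGG, along with the palindromic motif type of NRF1, a regulator of mitochondrial genes. The motif type of estrogen-related receptors, which reads AAGGTCA, and the TATA box, which reads TATAAA, were searched as well, and no member held either. The window of Etfbkmt held 1 GC box and none of the other 4. That window ends at 149141512, inside the gene record given above, and its GC box lies within the record. The windows of Etfa, Etfb and Etfdh end at the gene's start, and they held 2, 2 and 1 CCAAT. The NRF1 type was present once each before Etfb and Etfdh. Among all 32851 windows, 33.8% held the CCAAT box, 32.7% the GC box, 3.74% the NRF1 type, 4.08% the receptor type and 12.4% the TATA box. The window of Etfa (chr9:55512244-55512493, minus strand) is shown for 2 reasons. Among the 4 members, Etfa was the gene with which Etfb and Etfdh moved most closely in vehicle libraries. Both of its CCAAT matches, in capitals, lie within 28 bases of the start.
Etfa upstream: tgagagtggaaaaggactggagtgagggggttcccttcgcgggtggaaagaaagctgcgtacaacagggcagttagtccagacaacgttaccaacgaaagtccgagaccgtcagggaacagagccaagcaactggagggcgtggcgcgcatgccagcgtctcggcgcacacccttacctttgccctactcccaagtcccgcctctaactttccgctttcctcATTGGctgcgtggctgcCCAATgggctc

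The BPS libraries were not alike. Averaged over Kdm5d, Uty, Ddx3y and Eif2s3y, genes of the Y chromosome, expression was 0.529%, 49.0%, 73.2% and 32.0% of the vehicle mean in BPS replicates 4, 5, 6 and 8. It was 97.4% or more in BPS replicates 1, 2 and 3 and between 80.4% and 117.0% in vehicle libraries. BPS replicates 4, 5, 6 and 8 therefore stood apart. Whether each of these libraries holds RNA of the animal and treatment its label names was not tested, so values of the whole BPS group rest on labels that these genes leave in doubt, and the main results are given with and without them. The summed level of 9 brown adipocyte markers, Ucp1 among them, was 1427 FPKM in BPS replicate 4, 7871 to 20850 FPKM in the other BPS libraries and 10360 to 22950 FPKM in vehicle libraries, and no marker was at 0 in any library. The sum over 6 white adipocyte markers was 1888 to 4151 FPKM in BPS replicates 4, 5, 6 and 8, 428.2 to 1650 FPKM in BPS replicates 1, 2 and 3 and 593.9 to 2505 FPKM in vehicle libraries, with Hoxc9 at 0 in at least 1 library of BPS replicates 1, 2 and 3 and of vehicle. The sum over 12 skeletal muscle markers was 12.1 to 12960 FPKM in BPS libraries and 93.22 to 72180 FPKM in vehicle libraries, with Myh2 and Pvalb at 0 in at least 1 BPS library. Vehicle replicates 2, 6 and 8 had the highest muscle sums, 72180, 68460 and 23610 FPKM. The sum over 6 macrophage markers was 199.3 to 295.9 FPKM in BPS replicates 4, 5, 6 and 8, above every other library, against 112.2 to 135.1 FPKM in BPS replicates 1, 2 and 3 and 113.1 to 170.3 FPKM in vehicle libraries. In bulk tissue, fewer cells of a type and less RNA per cell cannot be told apart.

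Etfbkmt was at 42.63 FPKM in the lowest, 48.68 FPKM in the median and 57.35 FPKM in the highest of the BPS libraries, against 29.44, 33.85 and 39.77 FPKM in the lowest, median and highest vehicle library. Every BPS library lay above every vehicle library, with 42.63 FPKM as the lowest BPS value and 39.77 FPKM as the highest vehicle value. The same held for 0.469% of the 12156 genes tested, and 0.107% lay below in the same way, and nothing is read from these shares, because the gene was picked for its difference. The means were 48.95 ± 5.24 FPKM in BPS (SD, n = 7) and 33.99 ± 2.91 FPKM in vehicle (SD, n = 8), a ratio of 1.44. On the log2(FPKM + 1) scale the difference was 0.51 ± 0.0756 (SE, limma), and in the authors' deposited table the log2 ratio was 0.48. That table called 3.16% of its genes higher and 2.57% lower in BPS at a q-value under 0.05.

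The BPS libraries that stood apart overlapped with the other BPS libraries in Etfbkmt. The gene averaged 47.63 ± 4.81 FPKM in the 4 set-apart BPS libraries and 50.71 ± 6.28 FPKM in the other 3 (SD). With those 4 left out the log2 difference from vehicle was 0.56 ± 0.1, and of all genes 1.92% then lay above vehicle in every BPS library and 0.93% below. The vehicle libraries rich in muscle transcripts were at 33.9, 33.8 and 35.07 FPKM, inside the range of the others, and without them the log2 difference was 0.52 ± 0.0924. With the brown adipocyte marker score as a covariate it was 0.51 ± 0.0752. In BPS replicate 4, where the summed brown markers were lowest, Etfbkmt stood at 48.68 FPKM, close to the BPS mean. Etfbkmt was picked for its difference in these same libraries, so all these values are a description. The part of tissue composition in that difference was not tested.

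**Figure D1:**
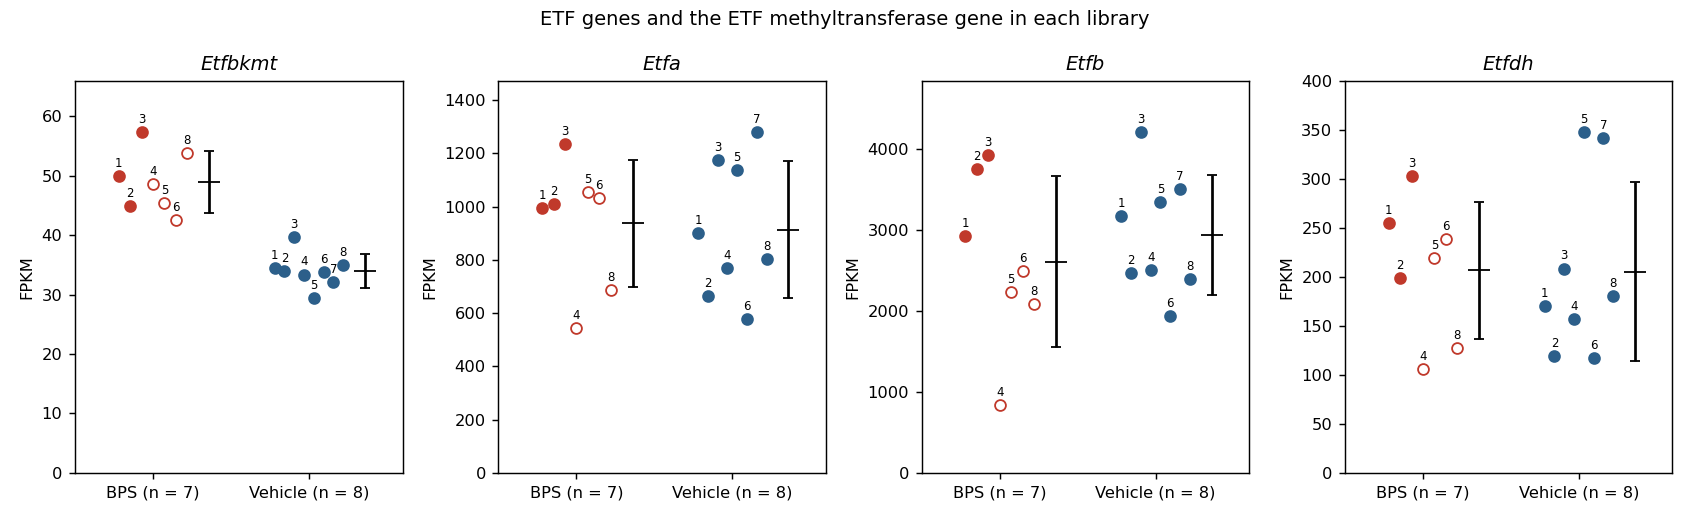
FPKM (y axis, from 0) of Etfbkmt, Etfa, Etfb and Etfdh in each of 7 BPS and 8 vehicle libraries, numbered by replicate, with the mean and SD beside the points; open circles are BPS replicates 4, 5, 6 and 8. The lowest BPS value of Etfbkmt, which was picked for its difference, is 42.63 FPKM and its highest vehicle value 39.77 FPKM. The groups overlap in the other 3 genes.

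The ETF genes themselves overlapped between the groups. Etfa, the alpha subunit gene, was at 543.51, 1010 and 1235.99 FPKM in the lowest, median and highest BPS library, against 577.33, 852.2 and 1280.17 FPKM in vehicle. Of the BPS libraries, 6 lay within the vehicle range and BPS replicate 4 below it. The means were 937.3 ± 238 FPKM in BPS (SD, n = 7) and 913.9 ± 257 FPKM in vehicle (SD, n = 8). The log2 difference of 0.04 ± 0.203 did not pass (limma, adjusted p 0.917 over all genes tested, of which 0.411% were called in either direction). With BPS replicates 4, 5, 6 and 8 left out it was 0.285 ± 0.232 (adjusted p 0.753), where 0.271% of all genes were called.

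Etfb, the methylated subunit and the most abundant of the 4, was at 841.06, 2486 and 3923.91 FPKM in the lowest, median and highest BPS library, against 1936.02, 2836 and 4201.99 FPKM in vehicle. BPS replicate 4 was lower than every other library, and the other 6 BPS libraries lay within the vehicle range. The log2 difference was -0.27 ± 0.277 with all libraries (limma, adjusted p 0.559), -0.02 without BPS replicate 4 and 0.29 ± 0.216 without the 4 libraries that stood apart (adjusted p 0.734). Its sign thus turned with those libraries. Etfb averaged 1912 ± 733 FPKM in those 4, 3532 ± 536 FPKM in the other 3 BPS libraries and 2938 ± 741 FPKM in the 8 vehicle libraries (SD). Summed brown markers moved with it, being lower in those 4 BPS libraries (1427 to 13120 FPKM) than in BPS replicates 1, 2 and 3 (14190 to 20850 FPKM), and their part in the result was not tested.

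Etfdh, the ubiquinone-reducing acceptor of ETF's electrons, was at 105.94, 219.9 and 303.06 FPKM in the lowest, median and highest BPS library, against 117.5, 175.8 and 348.21 FPKM in vehicle. As for the subunits, BPS replicate 4 was the lowest library and the other 6 lay within the vehicle range. The log2 difference was 0.04 ± 0.276 (limma, adjusted p 0.936), and 0.39 ± 0.329 without the 4 libraries (adjusted p 0.76). Etfa and Etfdh took the opposite sign without vehicle replicates 2, 6 and 8, with log2 differences of -0.19 ± 0.206 and -0.24 ± 0.29. In the authors' deposited table the q-values were 0.967 for Etfa, 0.681 for Etfb and 0.967 for Etfdh.

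With the brown adipocyte score as a covariate the standard errors of the 3 ETF genes were smaller and their differences still did not pass. The log2 differences were 0.14 ± 0.106 for Etfa, -0.12 ± 0.129 for Etfb and 0.18 ± 0.144 for Etfdh (limma, adjusted p 0.383, 0.54 and 0.408). Without that covariate the 95% intervals were -0.39 to 0.471 for Etfa, -0.86 to 0.318 for Etfb and -0.54 to 0.629 for Etfdh with all libraries.

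The order of levels per length was the same in every library. Etfb was above Etfa, Etfa above Etfdh and Etfdh above Etfbkmt in 15 of 15 libraries. By mean vehicle FPKM, Etfb ranked 48, Etfa 180, Etfdh 591 and Etfbkmt 2760 among the 12156 genes tested. Neighbours in this order did not overlap over the vehicle libraries: the lowest vehicle value of Etfb was 1936.02 FPKM and the highest of Etfa 1280.17 FPKM, the lowest of Etfa was 577.33 FPKM and the highest of Etfdh 348.21 FPKM, and the lowest of Etfdh was 117.5 FPKM and the highest of Etfbkmt 39.77 FPKM.

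Etfbkmt varied less among vehicle libraries than each of the ETF genes, and the difference in spread was not tested. A gene selected for a difference between groups tends to be one of low spread within them, and the vehicle values are among those Etfbkmt was selected on, so its spread is a description only. The coefficient of variation over the 8 vehicle libraries was 8.56% for Etfbkmt, 28.1% for Etfa, 25.2% for Etfb and 44.4% for Etfdh. Against genes within 2-fold of its level, 13.9% of 3125 genes varied less than Etfbkmt, with a median of 15.2%. For Etfdh 93.5% of 717 such genes varied less, for Etfa 75.1% of 236 and for Etfb 67.3% of 103. In the BPS libraries the coefficients were 10.7% for Etfbkmt, 25.4% for Etfa, 40.5% for Etfb and 33.8% for Etfdh.

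Etfa moved together with Etfb and with Etfdh across vehicle libraries. The r, rho and exact p of these pairs use no BPS library and no value of Etfbkmt. Adjustment was over 10 relations that include those with Etfbkmt, so the adjusted p-values depend on its values too. On the log2(FPKM + 1) scale, Etfa and Etfb had a Pearson r of 0.927 and a Spearman rho of 0.905 over 8 libraries (exact permutation over 40320 pairings, two-sided p = 0.00124 and 0.00456, adjusted 0.0094 and 0.0228 over 10 relations). Etfa and Etfdh had r = 0.914 and rho = 0.905 (exact permutation p = 0.00188 and 0.00456, adjusted 0.0094 and 0.0228). Etfb and Etfdh had r = 0.717 and rho = 0.762 and missed the threshold after adjustment (exact permutation p = 0.0496 and 0.0368, adjusted 0.0992 and 0.0736). Without the 2 libraries farthest from the median of the first gene, these r values were 0.903, 0.849 and 0.817 over 6 libraries.

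Etfbkmt had r = -0.05 with Etfa, 0.186 with Etfb and -0.41 with Etfdh over the same 8 libraries, with rho of -0.07, -0.07 and -0.24. Because these vehicle values are part of what Etfbkmt was selected on, its correlations are a description, with no test. Leaving out the 2 farthest libraries gave r of 0.0792, -0.65 and 0.721 over 6 libraries, so the sign of each changed with the libraries used. The difference between these correlations and those among the ETF genes was not tested.

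By Pearson r, the mean log2 level of the 9 brown adipocyte markers went with Etfdh and Etfa in the vehicle libraries, while Etfb missed the threshold. Its r was 0.931 with Etfdh, 0.85 with Etfa and 0.658 with Etfb (exact permutation p = 0.00315, 0.00945 and 0.0808, adjusted 0.0105, 0.0236 and 0.135 over the 10 relations). The rho values were 0.81, 0.833 and 0.643 (exact permutation p = 0.0218, 0.0154 and 0.0962, adjusted 0.0545, 0.0513 and 0.16). By rho, none of these genes passed after adjustment. With Etfbkmt the marker score had r = -0.36 and rho = -0.24, again as a description. Without the 2 farthest libraries r was 0.961, 0.829, 0.617 and -0.37 in the same order of genes. Skeletal muscle transcripts went the opposite way in vehicle replicates 2 and 6. These had the highest muscle sums and the lowest Etfa and Etfdh of the vehicle libraries. The part of muscle transcripts in these correlations was not tested. Too few vehicle libraries were left for a correlation without replicates 2, 6 and 8.

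**Figure D2:**
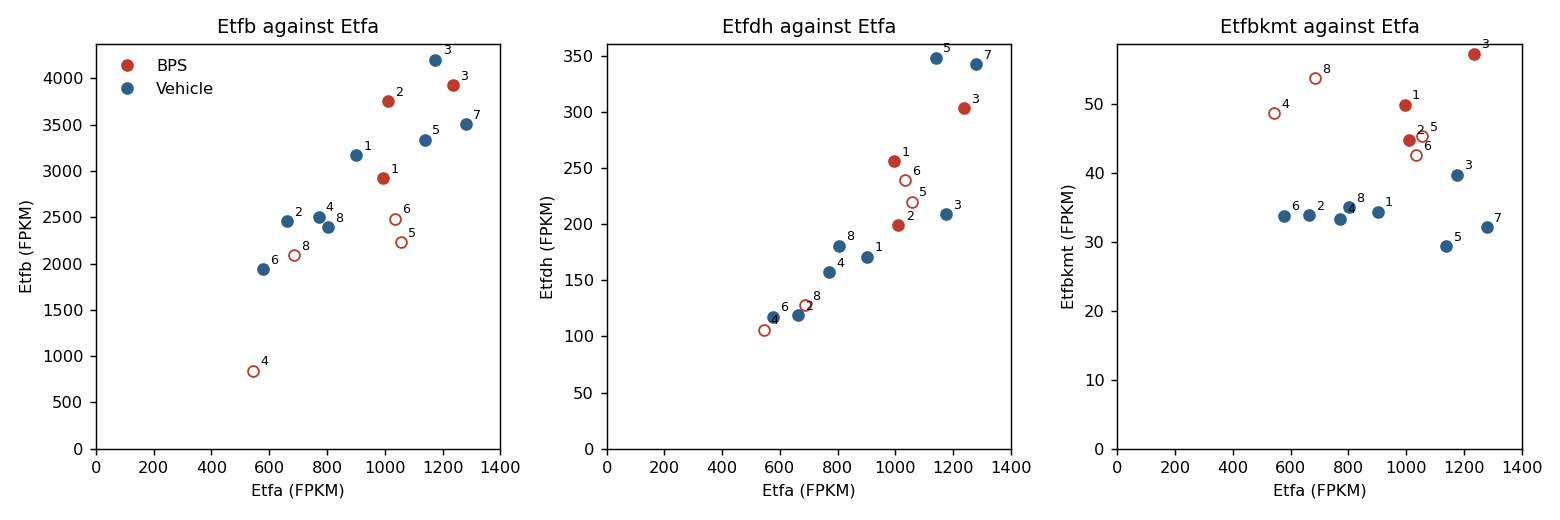
FPKM of Etfb, Etfdh and Etfbkmt (y axes, from 0) against FPKM of Etfa (x axis, from 0) in 7 BPS libraries (red; open circles are replicates 4, 5, 6 and 8) and 8 vehicle libraries (blue), numbered by replicate. Etfb and Etfdh tend to be higher where Etfa is higher. Etfbkmt lies higher in every BPS library than in any vehicle library, which is the difference it was picked for.

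The level of Etfa relative to Etfb was higher in some BPS libraries than in any vehicle library. Etfa was between 26.9% and 64.6% of Etfb in BPS libraries, with a median of 34.1%, against 27.0% to 36.5% with a median of 30.3% in vehicle libraries. BPS replicates 4, 5 and 6, at 64.6%, 47.3% and 41.6%, lay above every vehicle library, 3 other BPS libraries lay within the vehicle range, and BPS replicate 2 lay just below it. The mean log2 ratio was 0.31 higher in BPS, which did not pass (p = 0.0692, exact permutation, two-sided, 6435 assignments). Without BPS replicates 4, 5, 6 and 8 the difference was -0.01 (exact permutation p = 0.915). It was 0.185 without BPS replicate 4 (exact p = 0.156), 0.395 without BPS replicate 2 (exact p = 0.0133) and 0.357 without BPS replicate 3 (exact p = 0.046).

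Transcripts of the methyltransferase were few beside those of its substrate. Etfbkmt was between 1.2% and 5.79% of Etfb in BPS libraries, with a median of 1.71%, against 0.882% to 1.75% with a median of 1.21% in vehicle libraries. BPS replicates 4, 5 and 8, at 5.79%, 2.03% and 2.58%, lay above every vehicle library and the other 4 within the vehicle range. The mean was 1.46% ± 0.256 in BPS replicates 1, 2 and 3 (SD, n = 3), 3.03% ± 1.87 in BPS replicates 4, 5, 6 and 8 (SD, n = 4) and 1.22% ± 0.31 in vehicle (SD, n = 8). Because the ratio contains the gene that was picked for its difference, it is given without a test. Etfdh was 21.7% ± 2.75 of Etfa in BPS (SD, n = 7) and 21.9% ± 4.54 in vehicle (SD, n = 8), and all 7 BPS libraries lay within the vehicle range.

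**Figure D3:**
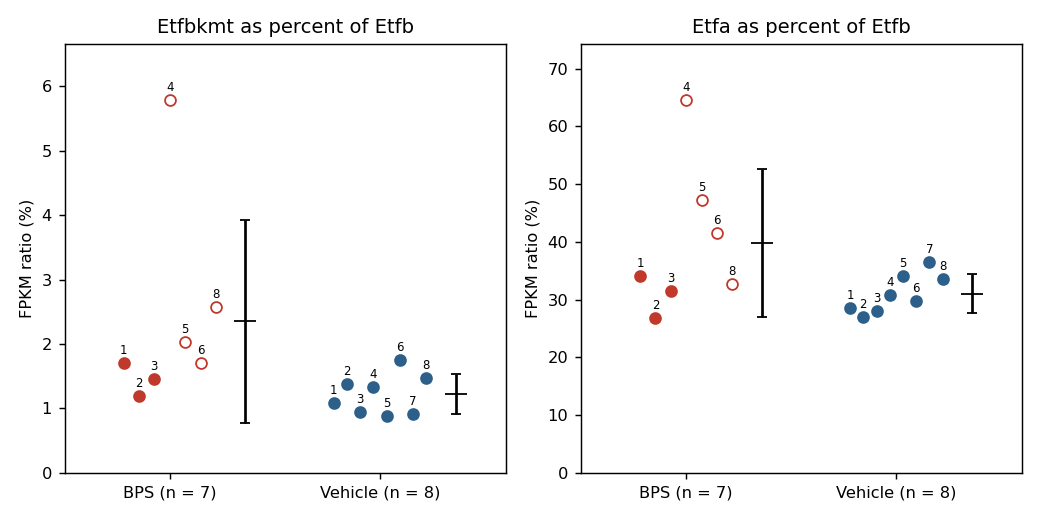
Etfbkmt as a percent of Etfb (left) and Etfa as a percent of Etfb (right), from FPKM, in each of 7 BPS and 8 vehicle libraries, numbered by replicate, with mean and SD; open circles are BPS replicates 4, 5, 6 and 8. BPS replicate 4 is highest in both, at 5.79% and 64.6%.

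The dehydrogenases that deliver electrons to ETF gave no call. Of 15 listed genes, 14 were in the table and were tested, and none passed in either direction (limma, adjusted p; 2 had an unadjusted p under 0.05), where 0.346% of all 12156 genes were called higher and 0.0658% lower in BPS. Those shares rest on 50 genes, a number that lay between 1 and 88 when 1 library at a time was left out. The median log2 difference of the dehydrogenases was 0.14, beside 0.05 over all genes tested, with 9 positive and 5 negative. Without BPS replicates 4, 5, 6 and 8, none passed either (2 at an unadjusted p under 0.05), where 0.263% of all genes were called higher and 0.00823% lower, with a median of 0.13 beside 0.01, 13 positive and 1 negative. Without vehicle replicates 2, 6 and 8 the median was 0.0611, with 8 positive and 6 negative. Genes of these libraries vary together, so the signs within this and later lists are not independent.

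Among the straight-chain enzymes, Acadvl, which opens the oxidation of very long acyl chains, averaged 933.3 ± 363 FPKM in the 7 BPS libraries, against 929.7 ± 323 FPKM in the 8 vehicle libraries (SD). Acadl, for long chains, was at 1171 ± 407 FPKM in BPS and 1389 ± 416 FPKM in vehicle. Acadm, for medium chains, averaged 922.3 ± 192 FPKM under BPS, against 998.5 ± 309 FPKM in vehicle, and Acads, for short chains, 256.6 ± 63.1 FPKM under BPS, against 259.9 ± 76.2 FPKM in vehicle. These 4 genes had log2 differences between -0.30 and -0.01 with all libraries (limma, adjusted p 0.494 to 0.985) and between 0.116 and 0.451 without BPS replicates 4, 5, 6 and 8 (adjusted p 0.692 to 0.89). Their sign turned with those libraries, as it did for Etfb. Without vehicle replicates 2, 6 and 8 they lay between -0.50 and -0.26.

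Among the enzymes of amino acid breakdown the log2 differences were positive with all libraries. Acadsb, which acts on short branched acyl-CoA of isoleucine breakdown, was at 112.0 ± 10.8 FPKM in BPS and 93.46 ± 7.75 FPKM in vehicle (SD, n = 7 and 8). The log2 difference of 0.257 ± 0.0759 did not pass (limma, adjusted p 0.104). Without BPS replicates 4, 5, 6 and 8 it was 0.143 ± 0.0978 (adjusted p 0.718). Ivd, for leucine breakdown, was at 107.5 ± 22.5 FPKM in BPS and 86.78 ± 5.59 FPKM in vehicle (SD, n = 7 and 8), with a log2 difference of 0.28 ± 0.115 (adjusted p 0.17) and of -0.01 ± 0.103 without BPS replicates 4, 5, 6 and 8. Gcdh, of lysine and tryptophan breakdown, had a log2 difference of 0.233 ± 0.129 and Acad8, of valine breakdown, one of 0.112 ± 0.108 (adjusted p 0.286 and 0.532). Gcdh was at 0.392 ± 0.169 without those 4 libraries and at 0.0604 ± 0.122 without vehicle replicates 2, 6 and 8, and Acad8 at 0.0811 ± 0.15 and -0.02 ± 0.103.

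For the remaining enzymes the log2 differences were 0.152 ± 0.0907 for Acad9, which also serves complex I assembly, 0.329 ± 0.157 for Acad10, 0.289 ± 0.148 for Acad11 and -0.30 ± 0.266 for Acad12. Sardh, which oxidizes sarcosine, was at 0.288 ± 0.141 and D2hgdh, which oxidizes D-2-hydroxyglutarate, at 0.132 ± 0.0873 on the same scale (limma, adjusted p 0.225 to 0.492 for these 6). Without BPS replicates 4, 5, 6 and 8, Acad11 was at 0.499 ± 0.194, Acad10 at 0.441 ± 0.208 and Acad12 at 0.0983 ± 0.15, while Acad9, Sardh and D2hgdh were at 0.0751 ± 0.124, 0.158 ± 0.202 and 0.0271 ± 0.11 (adjusted p 0.53 to 0.941). Without vehicle replicates 2, 6 and 8, Acad11 was at 0.0815 ± 0.127 and Acad10 at 0.107 ± 0.125, Acad9, Sardh and D2hgdh lay between 0.0618 and 0.0871, and Acad12 was at -0.45 ± 0.32.

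**Figure D4:**
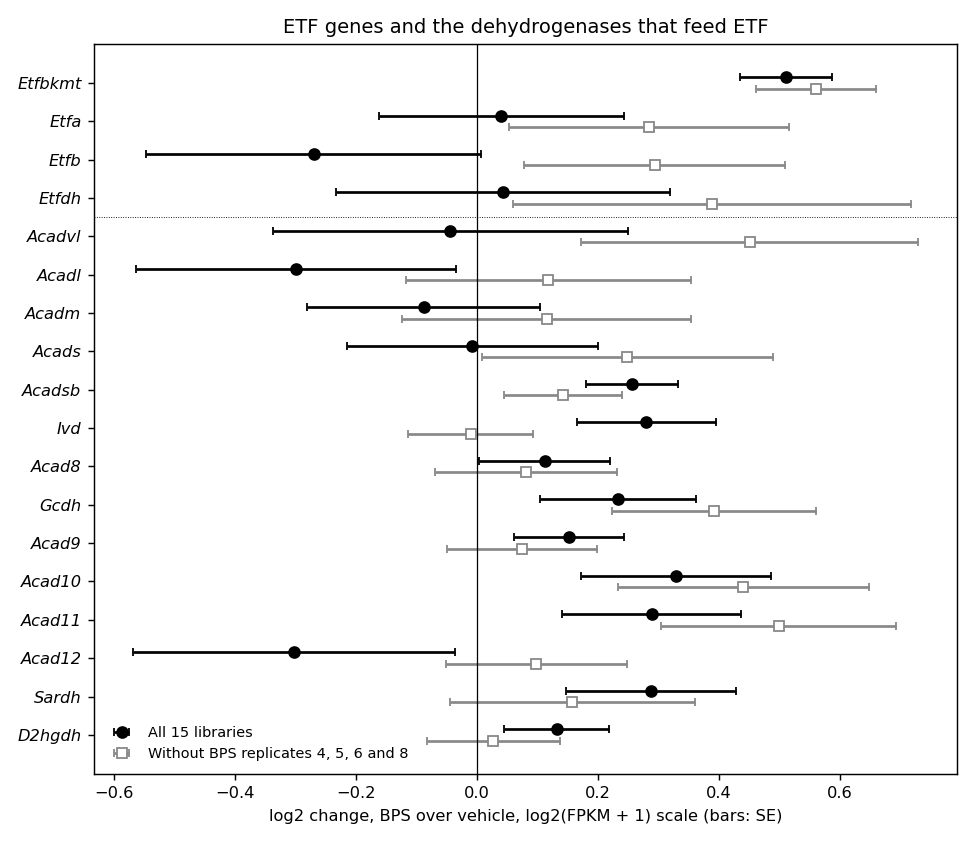
Log2 difference of BPS over vehicle with its SE (x axis, log2(FPKM + 1) scale) for the 4 ETF-related genes, above the dotted line, and the 14 dehydrogenases that feed ETF, with all 15 libraries (black circles) and without BPS replicates 4, 5, 6 and 8 (open squares). Etfbkmt is at 0.51 and 0.56 in these fits, and Etfb goes to 0.29 in the second against -0.27 in the first.

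The other genes of the route gave no call either, with all libraries. Of 9 genes of enzymes that pass electrons to ubiquinone without ETF, none passed (2 at an unadjusted p under 0.05). Their median log2 difference was -0.02 with all libraries, 0.0418 without BPS replicates 4, 5, 6 and 8 and -0.16 without vehicle replicates 2, 6 and 8. Prodh, which oxidizes proline, was at 21.99, 18.53, 21.47, 94.69, 65.98, 42.91 and 92.29 FPKM in BPS replicates 1 to 6 and 8, against 11.92 to 17.51 FPKM in vehicle. Every BPS library lay above every vehicle library, the 4 that stood apart by the most. Such a separation was seen for 0.469% of all genes tested, and Prodh was named for the smallest p of its list. Its log2 difference of 1.49 ± 0.331 missed the threshold (limma, adjusted p 0.0627). The difference was 0.504 ± 0.119 without those 4 libraries (adjusted p 0.187). Dropping the muscle-rich vehicle replicates 2, 6 and 8 left 1.44 ± 0.412 (adjusted p 0.365), in a fit that called no gene. A skeletal muscle score as covariate gave 1.4 ± 0.358 (adjusted p 0.173). With the brown adipocyte score as a covariate Prodh passed, with an adjusted p of 0.0161, in a fit where 1.66% of all genes were called higher and 0.485% lower. Sqor, which oxidizes sulfide, had log2 differences of 0.519 ± 0.185 and, without the 4 libraries, 0.0418 ± 0.143 (adjusted p 0.135 and 0.931). White adipocyte and macrophage marker sums were also higher in those 4 libraries (1888 to 4151 and 199.3 to 295.9 FPKM) than in BPS replicates 1, 2 and 3 (428.2 to 1650 and 112.2 to 135.1 FPKM), and their part in these results was not tested.

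Of 13 genes of ubiquinone synthesis none passed (4 at an unadjusted p under 0.05). Their median was -0.04 with all libraries, 0.0329 without BPS replicates 4, 5, 6 and 8 and -0.10 without vehicle replicates 2, 6 and 8. The lowest p was that of Coq10b, a ubiquinone-binding protein, at 32.29 ± 9.6 FPKM in BPS and 57.72 ± 17.3 FPKM in vehicle (SD, n = 7 and 8), a log2 difference of -0.82 ± 0.191 (limma, adjusted p 0.074) and of -0.40 ± 0.216 without the 4 libraries. Coq2, which attaches the side chain of ubiquinone, had a log2 difference of -0.18 ± 0.068 (adjusted p 0.147). Of 5 genes that supply riboflavin and FAD, the cofactor of ETF, none passed (1 at an unadjusted p under 0.05), with medians of 0.139, 0.117 and 0.0074 in the same 3 fits. Flad1, the FAD synthase, was at 31.15 ± 1.32 FPKM in BPS and 25.98 ± 4.32 FPKM in vehicle (adjusted p 0.131), and Slc25a32, a mitochondrial carrier linked to FAD, had a log2 difference of 0.149 ± 0.107. Without vehicle replicates 2, 6 and 8 their log2 differences were 0.153 ± 0.0763 for Flad1, against 0.269 ± 0.0943 with all libraries, and 0.0295 ± 0.094 for Slc25a32. Etfrf1, whose human product removes the flavin from ETF, was at 193.1 ± 39.3 FPKM in BPS and 228.4 ± 57.2 FPKM in vehicle, a log2 difference of -0.23 ± 0.169 (adjusted p 0.398). It was -0.04 ± 0.192 without BPS replicates 4, 5, 6 and 8 and -0.36 ± 0.191 without vehicle replicates 2, 6 and 8.

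Other protein lysine methyltransferases that share the fold of Etfbkmt's product were also measured. Of 11 tested, none passed in either direction (1 at an unadjusted p under 0.05), and the median log2 difference was -0.0027, within a range of -1.59 to 0.206. The median was -0.12 without BPS replicates 4, 5, 6 and 8 and -0.04 without vehicle replicates 2, 6 and 8, with a range of -0.20 to 0.30 in the last of these. Mettl22 was at 17.79 ± 4.07 FPKM in BPS and 25.61 ± 10 FPKM in vehicle, and Eef1aknmt, which methylates elongation factor 1A, at 3.529 ± 0.75 and 2.894 ± 0.373 FPKM (SD, n = 7 and 8; limma, adjusted p 0.209 and 0.243). The log2 difference of Mettl22 was -0.45 ± 0.208 with all libraries and -0.14 ± 0.161 without those vehicle libraries, and that of Eef1aknmt 0.206 ± 0.103 and, without the 4 BPS libraries, 0.0715 ± 0.117. Of 6 genes that make S-adenosylmethionine, the methyl donor, carry it into mitochondria or clear its product, none passed (1 at an unadjusted p under 0.05), with a median of 0.0527 and, without the 4 BPS libraries, of -0.04, and without the 3 vehicle libraries of 0.102. Ahcy, which clears S-adenosylhomocysteine, had a log2 difference of 0.16 ± 0.0721 and the related Ahcyl2 one of 0.388 ± 0.184 (adjusted p 0.2 and 0.22). Without BPS replicates 4, 5, 6 and 8 Ahcyl2 was at -0.07 ± 0.161 (adjusted p 0.897), so its sign turned, and Ahcy at 0.164 ± 0.0977.

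Neither the steps of fatty acid oxidation that do not use ETF nor general mitochondrial genes gave a call. Of 12 genes of those steps none passed (0 at an unadjusted p under 0.05). Their median was -0.02 with all libraries, 0.245 without BPS replicates 4, 5, 6 and 8, with 10 positive, and -0.23 without vehicle replicates 2, 6 and 8, with 11 negative. Hadhb had a log2 difference of -0.37 ± 0.268 and Eci2 one of 0.174 ± 0.121 (limma, adjusted p 0.403 and 0.384). Hadhb was at 0.0313 ± 0.244 without the 4 BPS libraries and at -0.56 ± 0.309 without the 3 vehicle libraries, and Eci2 at 0.254 ± 0.174 and 0.0343 ± 0.119. Of 10 genes of mitochondrial content none passed (3 at an unadjusted p under 0.05). All 10 had negative differences, with a median of -0.16 beside 0.05 over all genes tested, and such genes can vary together. Tomm22, of the outer membrane import complex, was at -0.30 ± 0.115 and the porin gene Vdac3 at -0.36 ± 0.158 (adjusted p 0.152 and 0.192). Tomm22 was at -0.10 ± 0.122 without the 4 BPS libraries, and Vdac3 at -0.12 ± 0.0967 without the 3 vehicle libraries. Without the 4 libraries 6 of the 10 were negative, with a median of -0.06, and without the 3 vehicle libraries 9 of the 10, with a median of -0.17. With the brown adipocyte score as a covariate Tomm22, and of the ubiquinone genes Coq7 and Coq10b, passed as lower in BPS. Tomm22 was at -0.24 ± 0.0509 and Coq10b at -0.79 ± 0.191 there (limma, adjusted p 0.0308 and 0.0471). That fit called 0.485% of all genes lower and 1.66% higher, more than the fit without the covariate.

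The neighbours of Etfbkmt were compared because the sources used here do not say whether strand was kept. Amn1, 6089 bases downstream and transcribed towards it, was at 16.47 ± 1.18 FPKM in BPS and 15.96 ± 2.9 FPKM in vehicle (SD, n = 7 and 8), a log2 difference of 0.0594 ± 0.105 (limma, adjusted p 0.746), and all 7 BPS libraries lay within the vehicle range. Without vehicle replicates 2, 6 and 8 that difference was -0.07 ± 0.0801. Dennd5b, 39795 bases upstream, was at 4.484 ± 0.766 FPKM in BPS and 3.37 ± 0.437 FPKM in vehicle, a log2 difference of 0.322 ± 0.0927 (adjusted p 0.101) and, without BPS replicates 4, 5, 6 and 8, of 0.164 ± 0.103. Ppid overlaps the end of Etfdh by 23 bases and was at 28.79 ± 2.1 FPKM in BPS and 34.95 ± 7.65 FPKM in vehicle (adjusted p 0.232), a log2 difference of -0.24 ± 0.119 and, without vehicle replicates 2, 6 and 8, of -0.10 ± 0.103. Cldnd2 overlaps the start of Etfb by 59 bases and averaged 0.0657 FPKM in BPS and 0.035 FPKM in vehicle, far under the level of Etfb. The microRNA gene Mir7051 lies inside Etfb.

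The genes whose pattern was most like that of Etfbkmt over all 15 libraries, by Pearson r of log2(FPKM + 1), were Mrtfb (0.919), Galnt15 (0.913), Ddit4 (0.912), Gm4951 (0.901) and Myrip (0.901). These are the highest values of all genes tested, and they share the difference between the groups with Etfbkmt. Ddit4, a stress-induced inhibitor of mTOR complex 1 signalling, was at 16.9 ± 5.47 FPKM in BPS and 9.42 ± 2.79 FPKM in vehicle (SD, n = 7 and 8). Galnt15 was at 27.2 ± 5.63 FPKM in BPS and 15.43 ± 2.94 FPKM in vehicle, and Myrip at 3.273 ± 0.946 and 1.48 ± 0.33 FPKM, both with every BPS library above every vehicle library. Of all genes tested, 0.469% were separated in this way. Nothing is read from that, because both genes were picked for likeness to Etfbkmt. With the group means taken out, Ddit4 came first (0.894), followed by Epn1 (0.841), Clec2d (0.838), Med22 (0.82) and Rplp2 (0.806). Over all 15 libraries Etfa, Etfb and Etfdh ranked 7083, 8890 and 7815 by this measure, with r of 0.0211, -0.17 and -0.05.

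The ETF genes had other nearest patterns over the 15 libraries. For Etfa these were Ndufv1 (0.981), a complex I subunit that carries a flavin, Coq6 (0.979), of ubiquinone synthesis, and Idh3g (0.971), of the citric acid cycle. For Etfdh they were Hadha (0.989), of fatty acid oxidation, Idh3g (0.974) and Agpat3 (0.973), and for Etfb they were Kxd1 (0.984), Ndufa7 (0.979) and Pank1 (0.976). Etfdh ranked 54 for Etfa, with r = 0.938, and Etfb ranked 447, with r = 0.809. These values describe likeness over libraries that share tissue composition, and no p is given for them.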

How the data were processed

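The deposited table gave FPKM per gene and library, to 2 decimals, with group means, a log2 ratio of BPS to vehicle and p-values and q-values, all made by the authors. The build was GRCm38.p6, and HISAT2 2.1.0, RSEM 1.3.1, Bowtie2 and DESeq2 1.4.5 are named in the submitters' processing notes, with no order. Poly(A) RNA was selected from TRIzol extracts and primed at random, per the labels' protocols. FPKM divides by each library's total, so more of an abundant transcript lowers all others.

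Here, the 12156 genes that reached 1 FPKM in 7 or more libraries were fitted with limma 3.58.1 in R 4.3.3 on log2(FPKM + 1), with an intensity trend and robust spread, Benjamini-Hochberg adjustment and a threshold of 0.05. Folds on that scale understate changes of low genes. Single values over samples were tested with exact permutation tests. The labels do not say that each library came from a separate animal, so p-values cover only the spread between these libraries. Fits were tested on simulated data in which genes varied independently and added changes were larger than most described here. That setting is unlike these libraries, whose genes vary together.

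Members and gene lists were chosen with earlier results of these data known. Named genes were the 4 members, the tested dehydrogenases that feed ETF, list members past the threshold or otherwise the 2 of smallest p, the 5 genes most like Etfbkmt, its neighbours and overlapping genes; the 3 genes most like each ETF gene were added after their values were seen. Marker lists of adipocytes, macrophages, endothelium and B and T cells gave no call (limma). Alternatives were other pseudocounts, filters, scalings, priors, covariates, a replicate term and left-out libraries.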

Additional observations from a re-analysis of the deposited data

Results flagged for a closer look

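Etfbkmt as a percent of Etfb stood at 5.79% in BPS replicate 4, far from the other 6 BPS libraries, which lay between 1.2% and 2.58%, and Etfb was at 841.06 FPKM there, its lowest value. Coq2 stood at 47.07 FPKM in the same library, below the other BPS libraries. Chance flags about 1 in 20 groups in this way, and both values belong to a library that stood apart in its Y-linked genes. The search covered both groups of most named genes and of each ratio, so many groups were searched.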

How the results depend on the processing

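The log2 difference of Etfbkmt lay between 0.47 and 0.56 under all 28 alternatives, and between 0.47 and 0.54 with each library left out. Etfbkmt was picked for its difference in these same libraries, so this range is a description and no evidence of robustness. The count of genes called over the whole table, which turns on a threshold and is a different measure, varied widely. It was 50 with all libraries, 17 with a pseudocount of 5, 9 with no filter, 29 with a filter of 5 FPKM, 79 with scaling to equal medians, 2 with the muscle score and 261 with the brown adipocyte score as a covariate. It was 33 without BPS replicates 4, 5, 6 and 8, and 0 without vehicle replicates 2, 6 and 8 (limma; 1440 genes at an unadjusted p under 0.05). With 1 library left out it ranged from 1 to 88, and it moved by over 1.5 times for every library except vehicle replicates 1 and 4. None of the 14 dehydrogenases was called under any of the 28 alternatives. Between 0% and 2.15% of all genes were called in these fits, so an absence of calls among 14 genes says little about them.

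Etfa and Etfdh missed the threshold throughout, and changed sign with scaling to equal medians (-0.0046 and -0.0020), with the muscle score as a covariate (-0.0818 and -0.138) and without vehicle replicates 2, 6 and 8 (-0.19 and -0.24). Leaving out 1 library gave -0.0467 to 0.164 for Etfa, -0.0617 to 0.19 for Etfdh and -0.39 to -0.02 for Etfb, the last of which was 0.29 without BPS replicates 4, 5, 6 and 8. The log2 ratio of Etfa to Etfb was -0.0089 without those 4 libraries and 0.185 to 0.395 with 1 library left out, past the threshold without BPS replicate 2 or 3. The cause was not tested.

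Replicate numbers were shared by 7 pairs, and the deviations of same-numbered libraries from their group means correlated between -0.42 and 0.583, over 0.1 in 4 pairs, with 2 BPS libraries closest to their own number. The numbers were therefore not taken to pair the libraries. With the replicate block 38 genes were called, and the log2 differences were 0.50 for Etfbkmt, 0.117 for Etfa, -0.23 for Etfb and 0.164 for Etfdh. Depth could not be weighed, since no counts were used.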
